A study of Homo sapiens with 6 samples.

Results

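Genes of the p53 pathway were followed in U87, an established cell line from a human glioblastoma. A list of 31 p53 target genes and p53 regulators was drawn up by name, with earlier results of these data known. Each gene was read from the array row that carries its symbol alone. Of these 31 genes, 30 were measured, among 22411 named genes in all; FDXR was not analysed here. The treated group (Treated_48h, 3 arrays) was given 1 mM of a carborane bearing amino acid in EMEM and incubated for 48 h. The control group (Control_48h, 3 arrays) had no treatment, and the labels name no vehicle for it. All cells had grown for 48 h beforehand in EMEM with 10% FBS and 1 mM sodium pyruvate. Carboranes are boron clusters whose cage also holds carbon, and the labels name the compound no further.

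p53 is a transcription factor that is held at a low level by its own target MDM2, a ubiquitin ligase that marks it for destruction. When DNA damage, nucleolar stress or another insult frees p53 from MDM2, it binds response elements near its targets and switches on genes that halt the cell cycle, repair DNA, tune metabolism or kill the cell. U87 is known to have lost the CDKN2A locus. The arrays measured mRNA, so they hold no value for the p53 protein.

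Values are log2 signals per transcript cluster, so a difference of 1 is a doubling on the deposited scale. A gene was called where the treated and control arrays differed at a Benjamini-Hochberg adjusted p under 0.05 over all 22411 genes (limma). The arrays of a group correlated at 0.998 across genes and arrays of different groups at 0.959 to 0.963, and genes are not independent replicates. Array medians of the named genes were 6.06 to 6.10, and a group mean below 6.08 is called near background here. No measured gene of the list was near background in either group. The list's signals ran up to 14.72, below the values above 16 that occur in the table. Among glial and glioblastoma markers, VIM and CD44 had high signals, whereas GFAP, S100B, SOX2 and OLIG2 were near background in both groups. VIM was called lower in treated cells, by 0.70 on the log2 scale, and CD44 higher, by 0.44. OLIG2 was called higher by 0.37, within the near-background range. NES, an intermediate filament of neural progenitors, was called lower in treated cells, where its mean was near background, so the size of its fall is uncertain. Among 15 markers of leukocytes, epithelium, endothelium, neurons and muscle, 11 were near background in both groups, and the others were CD68, KRT8, SYT1 and SNAP25. The leukocyte marker CD68 was very bright, with a mean of 16.11 in treated and 16.10 in control cells, and was not called. KRT8 rose by 0.36. CD44 and KRT8 each had another, dimmer row that was not used, with changes of 1.02 and 0.34. SNAP25 fell by 2.51 and SYT1 rose by 0.80 on the log2 scale, and the part of this in the results below was not tested. The array reads RNA pooled from many cells, so more cells that express a gene and more RNA per cell cannot be told apart. The labels do not say whether the triplicates came from separate dishes; p-values therefore cover only the spread between these arrays, which may be technical.

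Most of the p53 genes were higher in treated cells. Of 30 measured genes, 27 were called, with 25 higher and 2 lower (PERP and POLH), and the 3 not called were DDB2, APAF1 and PHLDA3. The median log2 change was 1.24, against 0.01 over all genes. Over all genes 45.6% were called, 24.0% higher and 21.6% lower, and among genes with a mean at or above the median of all genes, where all 30 lie, 40.1% were higher and 34.7% lower. A rise of at least 1 was reached by 18 of the 30, against 4.98% of all genes, and a fall of at least 1 by none of the 30, against 4.94% of all genes. In all 30 genes the treated and control arrays did not overlap, as in 53.5% of all genes. The shares for a change of at least 1 and for overlap include dim genes. They were not worked out for the brighter genes alone. The list mean was 9.98, 9.97 and 9.97 in treated replicates 1, 2 and 3, against 8.70, 8.70 and 8.68 in control replicates 1, 2 and 3. Replicate arrays lay close together for these genes, with SDs up to 0.16 in treated cells (ANKRA2) and up to 0.20 in control cells (TRIAP1).

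**Figure D1:**
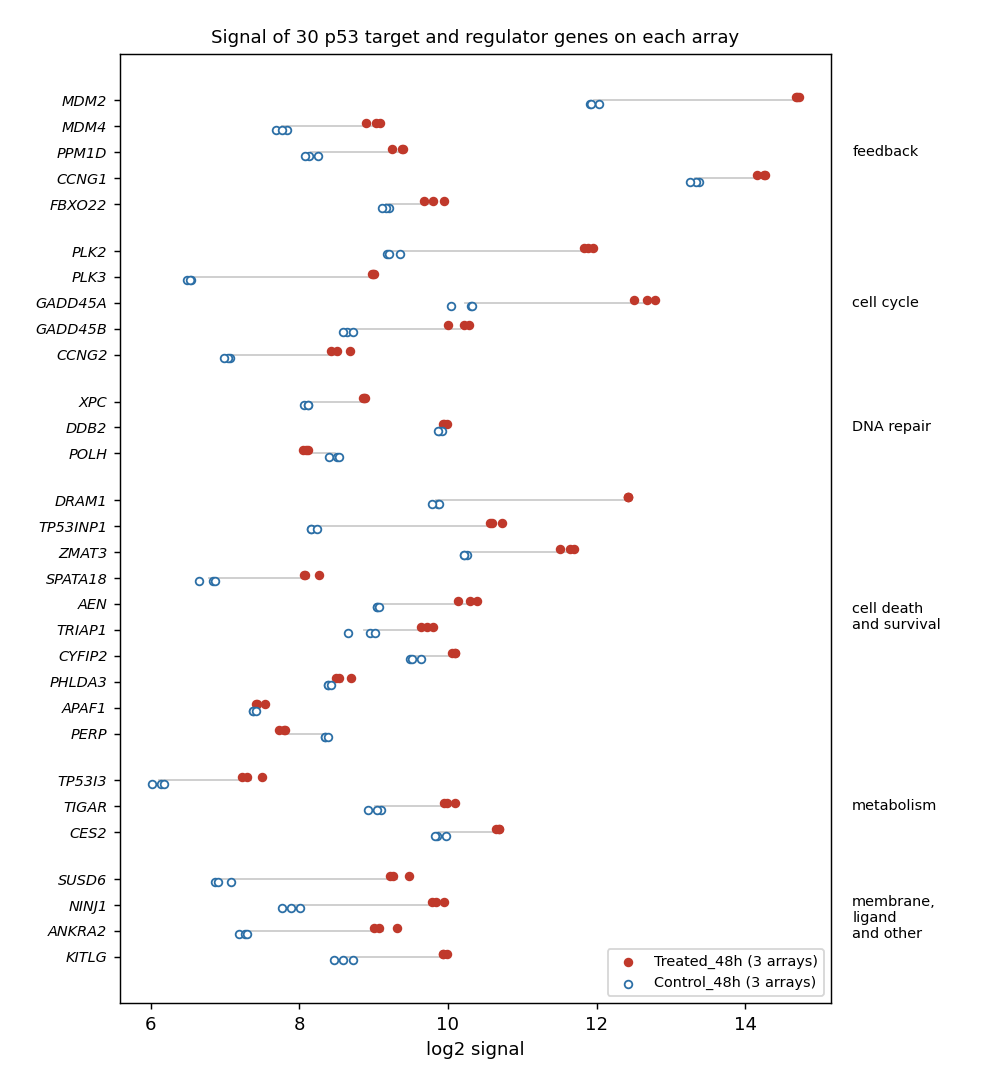
Log2 signal (x axis) of 30 p53 target and regulator genes (rows, grouped by role) on the 3 treated arrays (filled red points, upper) and the 3 control arrays (open blue points, lower), with a grey line joining the group means. Treated points lie to the right of control points in all rows but PERP and POLH, and the groups overlap in none; for DDB2, APAF1 and PHLDA3 the gap is small and was not called.

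The negative feedback genes of p53 rose together, all 5 of 5. The share called higher was 24.0% over all genes and 40.1% among genes with a mean at or above the median. These shares also stand beside the counts of the role groups below. MDM2, the ubiquitin ligase that degrades p53, was at 14.69, 14.70 and 14.72 in treated cells, against 12.04, 11.91 and 11.93 in control cells. This was the largest change of the 30 genes, at 2.74 on the log2 scale (SE 0.05, limma adjusted p = 4.57e-08), and the treated arrays differed by a far smaller amount than the groups. MDM4, a relative of MDM2 that binds and silences the activation domain of p53, was at 8.90, 9.03 and 9.09 in treated cells, against 7.83, 7.69 and 7.77 in control cells, a change of 1.24 (SE 0.06). PPM1D, the WIP1 phosphatase that switches off p53 and its kinases after stress, was at 9.39, 9.24 and 9.38 in treated cells, against 8.13, 8.25 and 8.07 in control cells, a change of 1.19 (SE 0.07). In MDM4 and PPM1D the lowest treated array lay 1.07 and 0.99 above the highest control array. CCNG1, a cyclin that recruits a phosphatase to MDM2, was at 14.25, 14.27 and 14.16 in treated cells, against 13.38, 13.34 and 13.26 in control cells, a change of 0.90 (SE 0.05). FBXO22, an F-box subunit of a ubiquitin ligase known to act on methylated p53, was at 9.68, 9.94 and 9.80 in treated cells, against 9.21, 9.17 and 9.11 in control cells, and its change of 0.64 (SE 0.07) was the smallest of the feedback genes.

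The start-site region of MDM2 is shown because MDM2 changed most, with the 250 bases before and 50 after the RefSeq start, at chr12:68807922-68808221 of GRCh38.p14 on the + strand, read 5′ to 3′ in lower case.
MDM2: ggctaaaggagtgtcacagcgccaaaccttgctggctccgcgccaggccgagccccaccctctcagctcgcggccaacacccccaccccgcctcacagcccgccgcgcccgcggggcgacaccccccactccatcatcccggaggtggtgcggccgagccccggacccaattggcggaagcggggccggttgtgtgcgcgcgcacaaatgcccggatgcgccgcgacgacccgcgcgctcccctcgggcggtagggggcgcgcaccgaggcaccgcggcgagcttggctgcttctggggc
The window was searched on both strands for the p53 response element consensus of 20 bases, allowing up to 2 mismatches and no spacer but keeping the C and G of each arm, and for a common core pair of it, CATGNNNNNNCATG, which reads the same on both strands. A site can match both motifs. Neither motif is in these letters of MDM2, which says nothing about p53 elsewhere; the known p53 elements of MDM2 lie in the first intron, outside this window. RefSeq's table held such a window for 27 of the 31 listed genes. The consensus was found in 1 of the 27, AEN, against 0.271% of all 27305 promoters, and the core pair in 1 of the 27, TRIAP1, against 0.392% of all.

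The listed genes grouped under the cell cycle had the largest median change of the role groups, 2.44. All 5 of 5 were higher, against 24.0% of all genes called higher. This group leaves out CDKN1A, SFN and E2F7, which are in the list of other p53 targets below. Of these, CDKN1A rose by 1.02, whereas SFN (0.14) and E2F7 (-0.02) were not called. The rank of the cell cycle group depends on leaving these genes out. PLK2, a polo-like kinase linked to stress and to centriole duplication, was at 11.95, 11.89 and 11.83 in treated cells, against 9.18, 9.35 and 9.20 in control cells, a change of 2.65 (SE 0.06, limma adjusted p = 1.32e-07). PLK3, a stress-responsive kinase of the same family, was at 8.97, 8.99 and 9.00 in treated cells, against 6.54, 6.48 and 6.52 in control cells. The change of 2.47 (SE 0.04) in PLK3 was far wider than the spread within either group. GADD45A, which binds PCNA and the mitotic kinase CDK1 after DNA damage, was at 12.68, 12.79 and 12.51 in treated cells, against 10.31, 10.32 and 10.04 in control cells, a change of 2.44 (SE 0.10). Control replicate 3 was the lowest of the controls here, and the lowest treated array still lay above every control. GADD45B, a related stress protein that also responds to NF-kB and TGF-beta, was at 10.28, 10.00 and 10.22 in treated cells, against 8.64, 8.72 and 8.59 in control cells, a change of 1.52 (SE 0.08). CCNG2, an unconventional cyclin that accompanies cell cycle exit and is also a FOXO target, was at 8.51, 8.68 and 8.42 in treated cells, against 7.07, 7.04 and 6.98 in control cells, a change of 1.51 (SE 0.07).

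The list holds 4 pairs of related genes, and the sizes of their rises were set side by side. MDM2 rose by 2.74 and MDM4 by 1.24, so that their changes differed by 1.50 (SE 0.05, exact permutation p = 0.1 over 3 against 3 arrays, two-sided). GADD45A rose by 2.44 and GADD45B by 1.52, a difference of 0.92 (SE 0.17, exact permutation p = 0.1). CCNG2 rose by 1.51 and CCNG1 by 0.90, a difference of 0.61 (SE 0.05, exact permutation p = 0.1). PLK2 and PLK3 rose by 2.65 and 2.47, a difference of 0.17 (SE 0.08, exact permutation p = 0.2). Adjusted over the 4 pairs the p-values were 0.133, 0.133, 0.133 and 0.2. With 3 arrays a group this test cannot go below 0.1, so it could not pass 0.05 for any pair, whatever the size of the difference. These are differences between log2 changes; probes of different genes respond differently, so the levels of the genes of a pair were not compared.

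**Figure D2:**
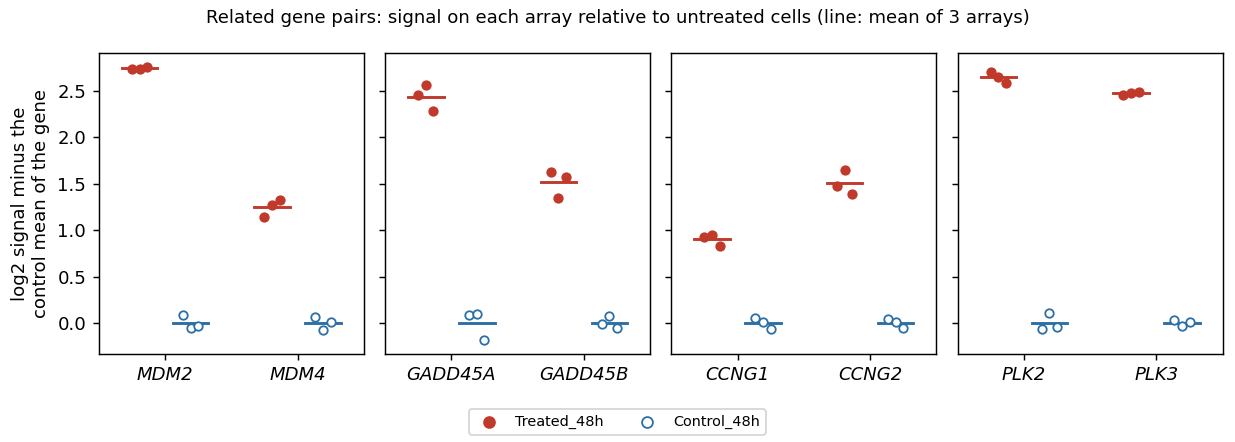
Log2 signal of each array minus the mean of the 3 control arrays of the same gene (y axis) for 4 pairs of related genes, with treated arrays (filled red) left of control arrays (open blue) and a line at each group's mean. The treated points of MDM2 lie about 1.50 further up than the treated points of MDM4, while the treated means of PLK2 and PLK3 differ by 0.17.

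The 3 genes of DNA repair did not move together. XPC, which recognises distorted DNA in nucleotide excision repair, was at 8.87, 8.86 and 8.88 in treated cells, against 8.06, 8.11 and 8.12 in control cells, a rise of 0.77 (SE 0.04, limma adjusted p = 4.08e-06). DDB2, which hands ultraviolet lesions to XPC, was at 9.99, 9.95 and 9.93 in treated cells, against 9.88, 9.92 and 9.87 in control cells. Its log2 change of 0.07 had a 95% interval of -0.03 to 0.16 and was not called (limma adjusted p = 0.235), although the lowest treated array lay just above the highest control. POLH, the polymerase that copies past ultraviolet lesions, was at 8.05, 8.09 and 8.11 in treated cells, against 8.40, 8.50 and 8.53 in control cells, so that it fell by 0.39 (SE 0.05, limma adjusted p = 0.000437).

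Among 10 genes of cell death and survival the median change was 1.04, with 7 higher, 1 lower and 2 not called. The shares over all genes were 24.0% higher and 21.6% lower. The largest rises were those of DRAM1 and TP53INP1. DRAM1, a lysosomal membrane protein that promotes autophagy downstream of p53, was at 12.42, 12.43 and 12.43 in treated cells, against 9.86, 9.88 and 9.79 in control cells, a change of 2.58 (SE 0.04, limma adjusted p = 3.59e-08). TP53INP1, a stress protein that helps kinases phosphorylate p53 and also takes part in autophagy, was at 10.59, 10.57 and 10.73 in treated cells, against 8.16, 8.15 and 8.24 in control cells, a change of 2.45 (SE 0.06). Between the lowest treated and the highest control array there was a gap of 2.54 for DRAM1 and 2.33 for TP53INP1. ZMAT3, an RNA-binding zinc finger protein that regulates splicing downstream of p53, was at 11.51, 11.64 and 11.70 in treated cells, against 10.25, 10.22 and 10.21 in control cells, a change of 1.39 (SE 0.06). SPATA18, a protein of mitochondrial quality control, was at 8.08, 8.06 and 8.26 in treated cells, against 6.84, 6.86 and 6.65 in control cells, a change of 1.35 (SE 0.08).

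AEN, a nuclease that degrades DNA in apoptosis, was at 10.39, 10.14 and 10.30 in treated cells, against 9.04, 9.04 and 9.07 in control cells, a change of 1.23 (SE 0.07). TRIAP1, a small protein that protects against apoptosis and helps to carry lipid within mitochondria, was at 9.72, 9.80 and 9.64 in treated cells, against 8.65, 8.95 and 9.02 in control cells, a change of 0.85 (SE 0.10). The control arrays of TRIAP1 were the most spread of the list, and even the highest of them was below the lowest treated array. The windows of AEN (chr15:88621090-88621389, + strand) and TRIAP1 (chr12:120446335-120446634, - strand) of GRCh38.p14, from RefSeq, are shown because they hold a motif match, marked in capitals.
AEN: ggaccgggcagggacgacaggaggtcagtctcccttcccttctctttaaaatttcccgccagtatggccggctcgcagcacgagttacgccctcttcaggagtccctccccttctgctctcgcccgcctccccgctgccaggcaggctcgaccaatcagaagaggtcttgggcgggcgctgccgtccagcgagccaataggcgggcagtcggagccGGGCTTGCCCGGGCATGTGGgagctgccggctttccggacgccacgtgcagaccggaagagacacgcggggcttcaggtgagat
TRIAP1: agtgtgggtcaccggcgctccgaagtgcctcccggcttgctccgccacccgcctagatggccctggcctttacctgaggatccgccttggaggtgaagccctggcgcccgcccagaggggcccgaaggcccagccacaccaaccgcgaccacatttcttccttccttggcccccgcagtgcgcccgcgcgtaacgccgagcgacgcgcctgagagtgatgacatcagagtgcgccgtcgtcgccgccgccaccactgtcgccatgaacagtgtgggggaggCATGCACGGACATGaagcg
The capitals of AEN are the consensus match, which begins 34 bases before the start. The capitals of TRIAP1 are the core pair, which begins at base 32 of the transcribed part. A match is a run of letters and not evidence of binding, and genes with larger rises, such as MDM2, PLK2 and DRAM1, had neither motif in this window.

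CYFIP2, a partner of the WAVE actin regulator, was at 10.10, 10.10 and 10.06 in treated cells, against 9.64, 9.49 and 9.52 in control cells, a rise of 0.54 (SE 0.05). PERP, a membrane protein of desmosomes and of p53-dependent apoptosis, was at 7.80, 7.79 and 7.73 in treated cells, against 8.35, 8.35 and 8.39 in control cells, so that it fell by 0.59 (SE 0.04, limma adjusted p = 1.99e-05). Every treated array of PERP was below every control, the opposite of the other called death genes. APAF1, the scaffold of the caspase-activating apoptosome, was at 7.42, 7.54 and 7.43 in treated cells, against 7.37, 7.37 and 7.41 in control cells, with a log2 change of 0.08 (95% interval -0.03 to 0.19) that was not called (limma adjusted p = 0.230). PHLDA3, which competes with the kinase AKT for membrane lipids, was at 8.70, 8.53 and 8.49 in treated cells, against 8.38, 8.39 and 8.43 in control cells. Its log2 change of 0.17 (95% interval 0.03 to 0.32) was not called (limma adjusted p = 0.0606); it was called without treated replicate 3 at 0.22 (adjusted p = 0.0387), with dim genes left out (adjusted p = 0.031) and with arrays centred on their medians (adjusted p = 0.0414), and its adjusted p ran from 0.031 to 0.146 over all 13 other settings.

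**Figure D3:**
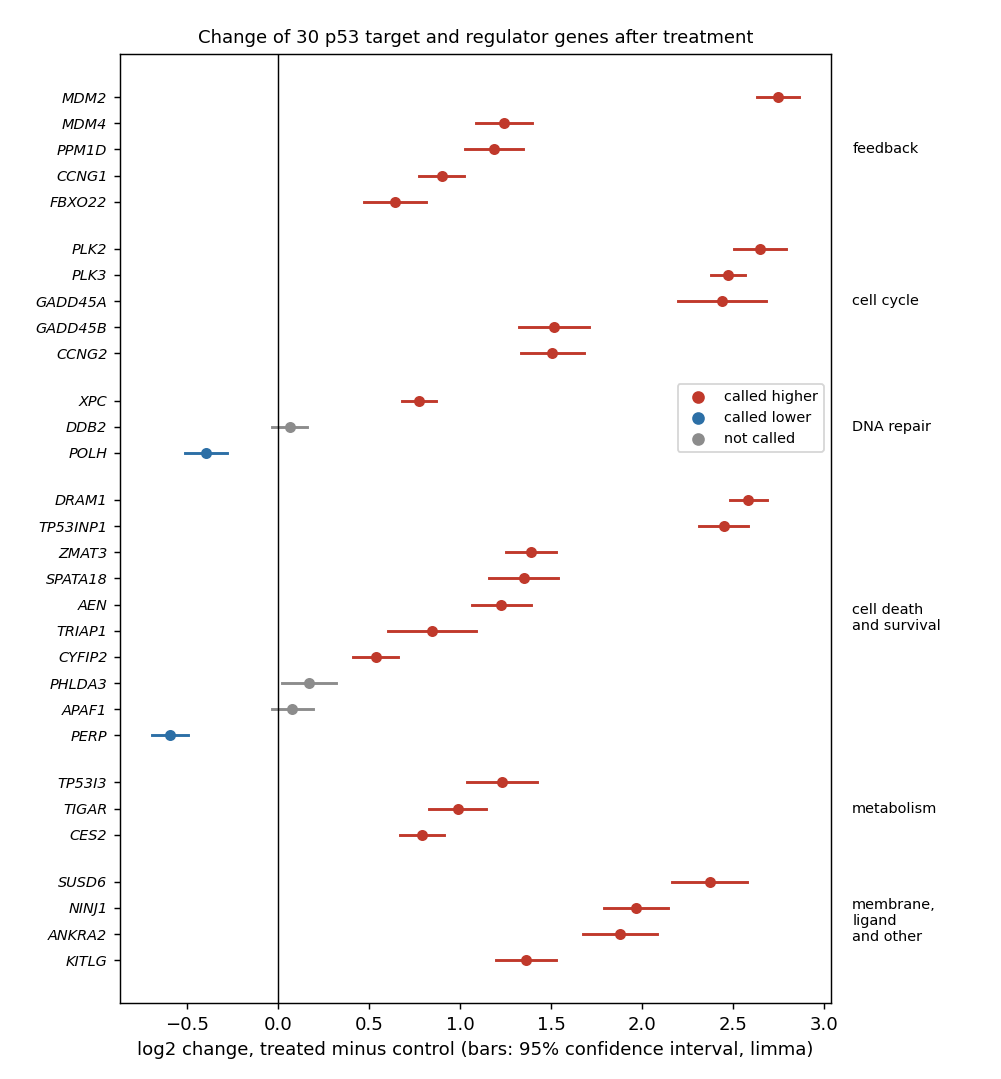
Log2 change, treated minus control (x axis), of 30 p53 target and regulator genes, with 95% confidence intervals from limma as bars and colour for the call. The rises reach 2.74 for MDM2, and PERP at -0.59 and POLH at -0.39 are the called falls.

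The 3 measured genes of metabolism rose, against 24.0% of all genes called higher. TP53I3, a quinone oxidoreductase linked to oxidative stress, was at 7.23, 7.50 and 7.30 in treated cells, against 6.02, 6.14 and 6.18 in control cells, a change of 1.23 (SE 0.08). Its control mean of 6.11 was just above background, so the size of its change is less certain. TIGAR, a phosphatase that lowers the glycolytic activator fructose 2,6-bisphosphate, was at 10.10, 9.94 and 9.99 in treated cells, against 9.10, 8.92 and 9.05 in control cells, a change of 0.99 (SE 0.07, limma adjusted p = 1.6e-05). CES2, a carboxylesterase that cleaves ester drugs, was at 10.69, 10.69 and 10.65 in treated cells, against 9.85, 9.97 and 9.83 in control cells, a change of 0.79 (SE 0.05). In all of these genes the groups were well apart.

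The remaining 4 genes, of the membrane, of secreted signals and of less defined roles, all rose, with a median of 1.92. Over all genes the share called higher was 24.0%. SUSD6, a membrane protein with a sushi domain, was at 9.26, 9.22 and 9.47 in treated cells, against 7.08, 6.86 and 6.90 in control cells, a change of 2.37 (SE 0.09, limma adjusted p = 9.37e-07). NINJ1, a cell surface protein that ruptures the plasma membrane of dying cells, was at 9.94, 9.84 and 9.78 in treated cells, against 8.01, 7.77 and 7.88 in control cells, a change of 1.97 (SE 0.07). ANKRA2, an ankyrin repeat protein that binds histone deacetylases, was at 9.31, 9.00 and 9.07 in treated cells, against 7.18, 7.26 and 7.30 in control cells, a change of 1.88 (SE 0.09). Treated replicate 1 was the highest array for ANKRA2, and the gap between its lowest treated and highest control array was still 1.70. KITLG, the ligand of the KIT receptor, was at 9.93, 9.98 and 9.93 in treated cells, against 8.46, 8.72 and 8.58 in control cells, a change of 1.36 (SE 0.07).

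A list of 36 other textbook p53 targets was read in the same fit, of which 32 were measured. Their median log2 change was 0.35, against 0.01 over all genes. Of the 32, 19 rose, 5 fell and the other 8 were not called, against 24.0% of all genes called higher and 21.6% lower. Among genes with a mean at or above the median of all genes, 40.1% were higher and 34.7% lower. Of this list, 3 genes were near background in each group. CDKN1A, which encodes the cyclin-dependent kinase inhibitor p21, the main arrest gene of p53, was at 9.79, 10.04 and 9.66 in treated cells, against 8.87, 8.81 and 8.75 in control cells, a rise of 1.02 (SE 0.10). PMAIP1, the gene of the death-promoting BCL2 relative NOXA, was at 12.50, 12.33 and 12.36 in treated cells, against 10.01, 10.08 and 9.73 in control cells, a change of 2.46 (SE 0.10). TNFRSF10B, the death receptor DR5, which CHOP also switches on, was at 12.10, 12.06 and 12.14 in treated cells, against 9.84, 9.88 and 9.70 in control cells, a change of 2.29 (SE 0.06). These death genes stood well clear of the controls, whereas BAX, the pore-forming BCL2 relative, rose by 0.37 and the death receptor gene FAS by 0.51.

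GDF15, SESN2 and EDA2R had the largest rises of that list. GDF15, a secreted stress factor that ATF4 also switches on, was at 15.65, 15.53 and 15.70 in treated cells, against 9.10, 9.11 and 8.37 in control cells. SESN2, a leucine sensor that restrains mTORC1 and is likewise an ATF4 target, was at 13.29, 13.12 and 13.19 in treated cells, against 10.08, 9.82 and 8.86 in control cells. Control replicate 3 was the lowest control in both, and the changes of 6.77 (SE 0.20) and 3.61 (SE 0.29) kept their call without it. EDA2R, a receptor for ectodysplasin A2, was at 14.77, 14.77 and 14.73 in treated cells, against 11.39, 11.20 and 11.12 in control cells, a change of 3.52 (SE 0.07). LIF, an interleukin 6 family cytokine, was at 12.03, 12.05 and 12.01 in treated cells, against 9.63, 10.02 and 9.61 in control cells, a change of 2.28 (SE 0.11). The 5 that fell, named after their values were seen, were CSF1 at -1.73, STEAP3 at -1.38, ARHGEF3 at -0.68, TM7SF3 at -0.46 and ASCC3 at -0.25.

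Upstream regulators and cofactors of p53 moved both ways, and the measured p53 relative, TP73, was near background and not called. Of 27 listed genes, 21 were measured, 7 rose, 7 fell and 7 were not called, and the median log2 change was 0.03. Over all genes 24.0% were called higher and 21.6% lower. Among genes with a mean at or above the median of all genes, 40.1% were higher and 34.7% lower. Of the regulator list, 3 genes were near background in treated cells and 2 in control cells. The list mean was 9.68, 9.68 and 9.65 in treated replicates 1, 2 and 3, against 9.69, 9.70 and 9.70 in control replicates 1, 2 and 3. TP53BP2, the gene of the p53-binding protein ASPP2, was at 11.27, 11.28 and 11.23 in treated cells, against 10.11, 10.05 and 10.03 in control cells, a rise of 1.20 (SE 0.04). CREBBP, an acetyltransferase and coactivator of p53, was at 11.88, 11.82 and 11.85 in treated cells, against 10.83, 10.86 and 10.83 in control cells, a rise of 1.01 (SE 0.04). No other gene of this list had a called rise of at least 1.

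The largest falls among the regulators were those of PRKDC, HDAC1, CHEK1 and TP53BP1. PRKDC, the DNA-dependent protein kinase, was at 12.54, 12.55 and 12.39 in treated cells, against 13.93, 13.97 and 13.99 in control cells, so that it fell by 1.47 (SE 0.06). HDAC1, a deacetylase of histones and of p53, was at 9.08, 9.04 and 8.97 in treated cells, against 10.40, 10.40 and 10.46 in control cells, so that it fell by 1.39 (SE 0.05). CHEK1, a checkpoint kinase of stalled replication, was at 8.52, 8.42 and 8.36 in treated cells, against 9.56, 9.45 and 9.51 in control cells, so that it fell by 1.07 (SE 0.06). TP53BP1, a scaffold of DNA break repair, was at 8.95, 8.98 and 9.06 in treated cells, against 9.84, 9.83 and 9.80 in control cells, so that it fell by 0.83 (SE 0.04). Every treated array of these genes lay below every control array. Among the kinases that phosphorylate p53, ATM rose by 0.36, HIPK2 rose by 0.65 and ATR fell by 0.33, whereas CHEK2 had a log2 change of 0.03 (95% interval -0.05 to 0.12) that was not called. CDKN2A, whose ARF product inhibits MDM2, was near background at 5.09, 5.16 and 5.09 in treated cells, against 5.08, 5.19 and 5.17 in control cells.

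**Figure D4:**
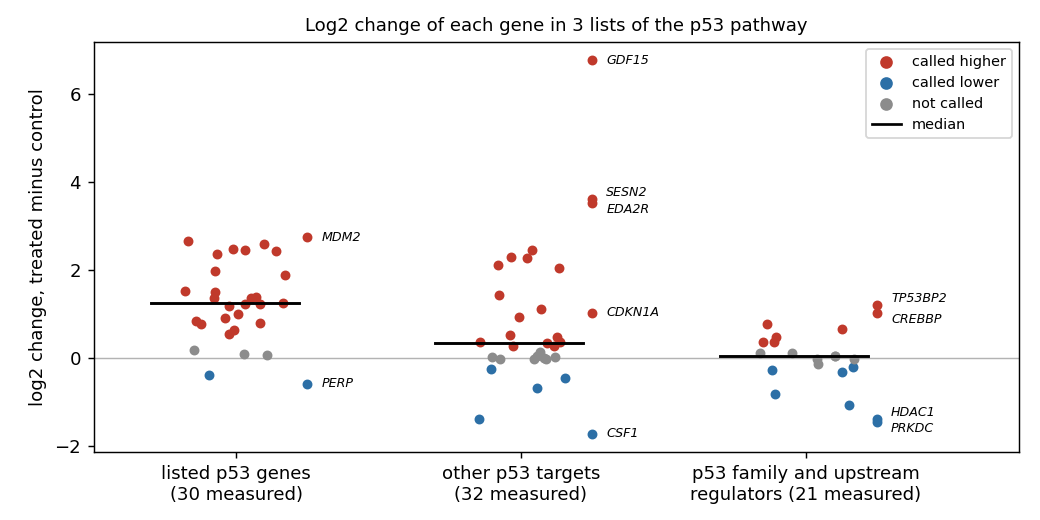
Log2 change, treated minus control (y axis), of each measured gene in the list of 30 p53 genes, in 32 other p53 targets and in 21 genes of the p53 family and its upstream regulators; points are genes coloured by call and black lines are medians. The medians are 1.24, 0.35 and 0.03, and GDF15 stands highest at 6.77.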

How the data were processed

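Total RNA of 6 U87 samples was measured on Affymetrix whole-transcript arrays, with 100 ng of RNA of an integrity number above 8, per the labels' protocols. Per the submitters' processing notes, the authors used Transcriptome Analysis Console 4.0.1.36 and RMA, which gave the deposited log2 signal of each transcript cluster. RMA brings arrays to a common distribution and so hides any change in total RNA per cell. Between 181 and 196 values per array exceed 16, more than a 16-bit scan can give, so an unstated step may have stretched the scale and with it the size of each change. The genome build of the arrays was not given in the sources used here.

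Symbols came from the platform annotation, updated to the GRCh38.p14 RefSeq table. Of 67528 rows, 23781 had 1 symbol, 1543 several and 42204 none; the row with the highest mean was kept for each of 22411 genes. Each gene of the p53 lists had 1 such row. Treated minus control was tested with limma 3.58.1 in R 4.3.3 (lmFit, eBayes; 4 residual and 2.75 prior degrees of freedom), and the code was tested on simulated data. No gene was called absent, since no detection p-values were used. The number of arrays limits the precision.

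The genes and lists were chosen with earlier results of these data known. All 31 listed genes are named; from each other list, CDKN1A and up to 6 called genes with the largest absolute change are given in full, and further genes named, such as BAX, FAS, ATM and the cell type markers, were chosen after their values were seen. Other settings were a replicate block, each array left out, dim genes left out, all rows, averaged rows, median centring, eBayes with trend and robust estimation and a minimum log2 change of 1. Compressing all values so that the highest is 16 was added after the data were seen.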

Additional observations from a re-analysis of the deposited data

How the results depend on the processing

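The 43 genes given in full (the measured listed genes, CDKN1A and the genes with the largest called changes in the 2 other p53 lists) were followed under 13 other settings. Directions were the same in all of them, and 556 of 559 values kept their side of the threshold. The others were PHLDA3 without treated replicate 3, without dim genes and with centred arrays. The minimum log2 change of 1 was not among these 13 settings. Called genes with smaller changes, such as CCNG1 and PERP, do not pass that minimum. The listed genes had 27 calls (25 higher, 2 lower), and 27 to 28 when 1 array was left out. Their median log2 change of 1.24 was 1.23 to 1.29 when 1 array was left out, 1.26 with centred arrays and 1.02 on the scale compressed to 16. With a minimum log2 change of 1, 18 listed genes were called higher and 0 lower (limma; 0 lower also at an unadjusted p under 0.05). The same minimum left 13 other p53 targets (11 higher, 2 lower), 5 regulators (2 higher, 3 lower) and 2224 of all genes (1116 higher, 1108 lower). The labels do not say whether replicate numbers pair the arrays. Deviations from the group means correlated at -0.08, 0.04 and -0.05 between same-numbered arrays, and at -0.04 to 0.09 between the others. With 3 arrays a group, such values cannot exclude a pairing. With the replicate number as a block, 27 listed genes, 24 other targets, 14 regulators and 9577 of all genes (against 10212) were called, and none of the 43 genes changed its call. Averaging rows left the signals of these 43 genes as they were, since each has 1 row. Other genes named, such as the cell type markers, were not followed under these settings.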
